A study of Cicer arietinum with 24 samples.

Results

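The embryogenesis step between mid-embryogenesis (S2) and late-embryogenesis (S3) of chickpea (Cicer arietinum) seeds was examined gene by gene. Of 27966 entries with a gene identifier, called genes hereafter, 17066 reached at least 1 FPKM at S3 or S2 and were compared. Among these, 763 genes (4.47%) were at least 2-fold higher at S3, 1217 (7.13%) were at least 2-fold lower, and together 1980 (11.6%) were at least 2-fold apart. These groups are called the risers and the fallers below. Differences are given as S3 minus S2 on the log2(FPKM + 1) scale, on which 1 is the 2-fold limit and changes of genes at low levels are understated. FPKM is the number of sequenced fragments scaled by exon length and library size.

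S3 and S2 were whole seeds of the large-seeded cultivar JGK3, taken from field-grown plants, with no treatment or mutant named in the labels. The series holds 24 samples, 3 at each of 7 seed stages (S1 to S7) and 3 of leaf collected while seeds on the plants were at mid-maturation. S1 was early-embryogenesis, S5 mid-maturation and S7 late-maturation, and S4 and S6 lay between their neighbours. The 3 samples of a group were given as 1 pooled FPKM column, so no spread between replicates, error or p-value could be computed, the depth was unknown, and every difference below describes pooled columns.

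During embryogenesis of a legume seed, cell division gives way to cell expansion and differentiation, and the cotyledons then fill with storage protein and starch before the seed dries. A whole seed holds seed coat, endosperm and embryo in proportions that shift as it grows. In such bulk samples, fewer cells of a type and less RNA per cell cannot be told apart. The deposited identifiers were not paired with gene names, so functions are given only for genes that the study names or places in a list, and all other genes are described by their courses.

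Most genes held their level over this step. The median difference over all 17066 genes was 0.0076, the quartiles were -0.32 and 0.31, and the log2 values at S3 and S2 had a Pearson correlation of 0.93 across genes, which are not independent replicates. Changes were mostly modest. Of the risers, 603 were 2- to 4-fold, 111 were 4- to 8-fold, 38 were 8- to 16-fold and 11 were more than 16-fold higher. Of the fallers, 910, 214, 63 and 30 genes fell into the same classes. By the mean of S3 and S2, the shares were highest under 3 FPKM, where 6.95% rose and 8.12% fell, and lowest between 10 and 30 FPKM, where 3.15% rose and 5.88% fell. Over 100 FPKM, 6.50% rose and 7.85% fell.

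**Figure D1:**
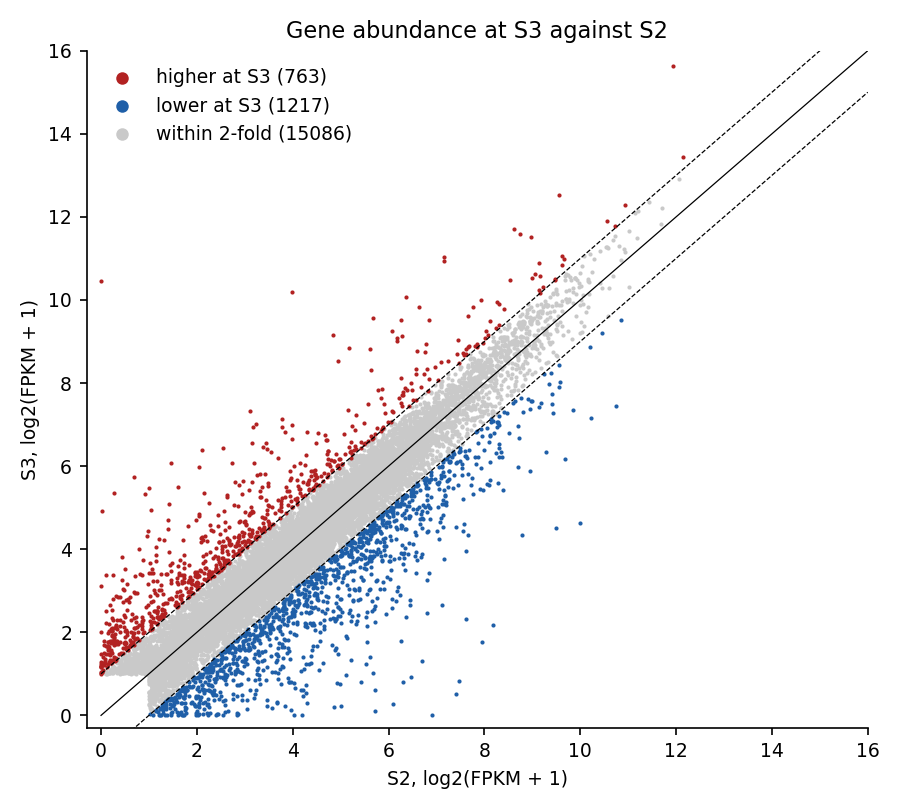
Each point is 1 of 17066 genes, with log2(FPKM + 1) at S3 on the y axis and at S2 on the x axis. The solid line marks equal values and the dashed lines the 2-fold limit, above which lie 763 risers (red) and below which lie 1217 fallers (blue). The point near 16 on the y axis is Ca_28211.

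The balance of risers and fallers depended on how the columns were scaled. Risers made up 38.5% of the genes apart as deposited, against 24.9% when all columns were scaled to the same sum, which shifted the median of all genes by -0.22. The summed FPKM was 934142 at S3 and 787865 at S2, and 32.2% of this difference came from Ca_28211 alone. Scaling to the same upper quartile or by the median ratio gave 44.8% and 40.2%.

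The risers were at low levels in early seeds, stayed up through S5 in their median and were low again in late seeds. Their median was 2.98 FPKM at S1, 4.31 at S2, 15.7 at S3, 14.4 at S4, 10.9 at S5, 0.64 at S6 and 0.36 at S7, with 1.97 FPKM in leaf. The S3 and S2 columns chose these genes, so the step between these medians is no finding. The fallers had medians of 10.3, 21.9, 5.31, 7.90, 7.11, 8.19 and 6.95 FPKM at S1 to S7 and 16.3 FPKM in leaf. Over all genes compared the seed medians stayed between 11.7 and 14.4 FPKM.

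**Figure D2:**
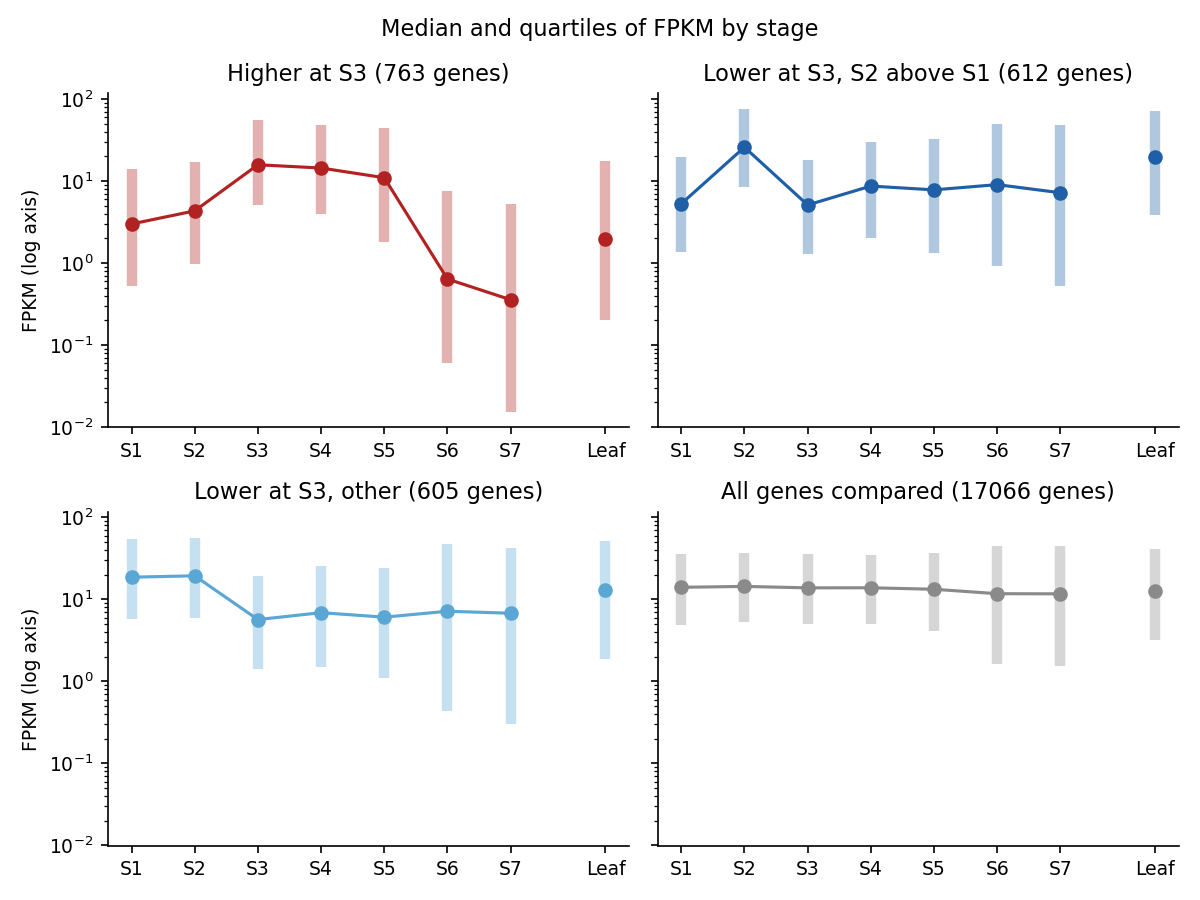
Points are medians and bars span the quartiles of FPKM values (log axis) at S1 to S7 and in leaf for 763 risers, 612 fallers whose S2 level was at least 2-fold above S1, the other 605 fallers and all 17066 genes. The median of the risers lies between 10.9 and 15.7 FPKM from S3 to S5 and drops to 0.64 FPKM at S6. The 612 fallers stand out at S2, which the rule that chose them sets above S1 and S3.

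Among single genes above 0 at S1 to S4, the largest rise belonged to Ca_10366, which was near 0 at S1 and S2. It had 0.00975, 0.200, 39.6, 402, 2659, 699 and 814 FPKM at S1 to S7, with 0.197 FPKM in leaf, a difference of 5.08 at this step. Its rise went on for another 3.31 to S4 and it was among the abundant genes at S5. Ca_04900 followed with 2.42, 1.74, 66.6, 102, 81.8, 0.115 and 0.0266 FPKM at S1 to S7, a difference of 4.62. Ca_01621 had 0.167, 1.01, 43.7, 27.9, 7.60, 0 and 0.0355 FPKM at S1 to S7, a difference of 4.47. Ca_04900 stayed up to S5 and was near 0 from S6, whereas Ca_01621 was already past its highest stage at S4.

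The other genes with the largest rises had differing later courses. Ca_12034 had 1.22, 3.29, 83.3, 167, 341, 1.93 and 0.425 FPKM at S1 to S7, so it was higher at each stage up to S5 and almost absent at S6. Ca_26910 had 0.0348, 3.15, 61.8, 76.4, 34.6, 0 and 0.0217 FPKM at S1 to S7, and was highest at S4. Ca_23132 differed from both, as it was highest at S6, with 5.10, 1.06, 29.9, 66.8, 365, 1938 and 1120.0 FPKM at S1 to S7.

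A further pair, Ca_24483 and Ca_28034, alternated between neighbouring stages. Ca_24483 had 172, 50.4, 754, 343, 820.1, 684 and 371 FPKM at S1 to S7, a difference of 3.87 at this step. Ca_28034 had 343, 142, 1966, 749, 1906, 1641 and 674 FPKM at S1 to S7, a difference of 3.79. Both were lower at S2 than at S1, high at S3, lower at S4, high at S5 and S6, and lower at S7.

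Among the same genes, the falls were larger than the rises at the extreme. The 8 genes with the largest falls were all more than 2-fold higher at S2 than at S1 and had their highest seed value at S2. The S2 column helped to choose these genes, so a high S2 value was favoured. Ca_02363 had 1.31, 168, 0.423, 49.3, 7.22, 0.597 and 0.188 FPKM at S1 to S7, a difference of -6.89. Ca_09030 had 8.58, 177, 0.764, 3.52, 1.31, 125 and 155 FPKM at S1 to S7, a difference of -6.66. Ca_16187 had 25.5, 247, 2.40, 23.5, 7.94, 2.65 and 1.09 FPKM at S1 to S7, a difference of -6.19. The first was back at 49.3 FPKM at S4, the second returned only at S6 and S7, and the third reached 205 FPKM in leaf.

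Ca_24862 had 49.8, 289, 3.55, 36.0, 8.24, 0.977 and 0.998 FPKM at S1 to S7 and 652 FPKM in leaf, a difference of -5.99. Ca_00727 had 0.760, 67.0, 0.216, 0.977, 0.691, 27.9 and 40.7 FPKM at S1 to S7, a difference of -5.80. Ca_13970, which the study lists in a quantitative trait locus (QTL) for seed size or weight, had 0.249, 78.3, 0.750, 1.27, 5.25, 63.9 and 3.32 FPKM at S1 to S7, a difference of -5.50. The high values of Ca_00727 and Ca_13970 at S6 stood beside low values at S3, S4 and S5. Ca_15971 and Ca_11382 had differences of -5.61 and -5.38, with 0.0783 and 1.49 FPKM at S3 against 51.8 and 103 FPKM at S2.

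In FPKM itself the step was dominated by few genes. Ca_28211 had 11106, 3903, 51044, 20301, 56210.5, 47583 and 17826 FPKM at S1 to S7, with 10938 FPKM in leaf. It alone held 5.46% of the summed FPKM at S3, against 0.50% at S2, and its difference was 3.71. The gene was abundant in every group, including leaf, and, as Ca_24483 and Ca_28034 were, it was lower at S2 than at S1 and S3, lower at S4 than at S3 and S5, and lower at S7 than at S6. Among single genes above 0 at S1 to S4, Ca_22419 had the next largest rise in FPKM, 7659 FPKM at S3 against 4256 FPKM at S2, and stayed within the 2-fold limit with a difference of 0.85.

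Ca_15857 and Ca_15856, whose identifiers are consecutive, had almost the same course. Ca_15857 had 409.9, 392, 3368, 2159.6, 363, 0 and 1.35 FPKM at S1 to S7, a difference of 3.10. Ca_15856, also in the QTL list, had 424, 429, 3054, 3166, 615, 0 and 0 FPKM at S1 to S7, a difference of 2.83. Both were abundant at S3 and S4 and almost absent or listed at 0 at S6. Whether these are near-identical copies that share reads was not tested. Ca_06016 had 690.2, 504, 2949, 4301, 3931, 58.1 and 2.68 FPKM at S1 to S7, and was highest at S4.

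Of the genes with the largest falls in FPKM, Ca_22198 was highest at S1 and lower at each stage to S5, with 2987, 1023, 23.7, 21.7, 4.87, 126 and 86.3 FPKM at S1 to S7. Its difference at this step was -5.38. Ca_17324 had 972, 1198, 142, 57.5, 52.4, 27.3 and 6.14 FPKM at S1 to S7, a difference of -3.07, and continued down to S7. Ca_03455, Ca_00097 and Ca_05453 instead peaked at S2 among the first 4 stages, with 173, 591 and 162 FPKM at S3 against 1728, 1408 and 922 FPKM at S2 and differences of -3.31, -1.25 and -2.50.

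For the question of whether the change continued after S3, S4 was set against S3. The S3 column enters both steps, so the counts below describe courses and carry no test. Of the 763 risers, 98 rose at least 2-fold further at S4, 506 stayed within 2-fold and 159 fell back at least 2-fold. Over all genes compared, 7.14% were at least 2-fold higher and 6.96% at least 2-fold lower at S4. Of the 1217 fallers, 66 fell further, 899 stayed within 2-fold and 252 came back up. Most genes of both groups were thus within 2-fold of S3 at S4. In both, a return was more frequent than a further change, at 20.8% against 12.8% of risers and 20.7% against 5.42% of fallers. Set against S2, which also chose the genes, 457 risers (59.9%) were at least 2-fold higher at S4 and 755 fallers (62.0%) lower. Over all genes compared, 9.35% were higher and 11.2% lower at S4 than at S2.

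At S5 the risers had divided, with 151 at least 2-fold above and 336 at least 2-fold below their S3 level, where 13.9% and 18.2% of all genes were. At S6, 595 risers (78.0%) were at least 2-fold below S3 and 64 above, against 34.0% and 25.8% of all genes. At S7 these numbers were 622 (81.5%) and 52, against 34.1% and 26.3%. The fallers spread both ways. At S5, 184 were at least 2-fold below and 314 above S3. At S6, 316 (26.0%) were below and 459 (37.7%) above, and at S7, 344 and 441. All counts at S5 to S7, here and below, use the columns as deposited and were not repeated under other scalings. Scaling to the same sum would divide S5, S6 and S7 by 1.03, 1.82 and 1.90 and S3 by 0.746. For the upper quartile these factors were 0.919, 1.36, 1.37 and 0.838, and for the median ratio 1.01, 1.01, 1.03 and 1.00. The balance of fallers above and below S3 could differ under scaling to the sum or upper quartile.

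**Figure D3:**
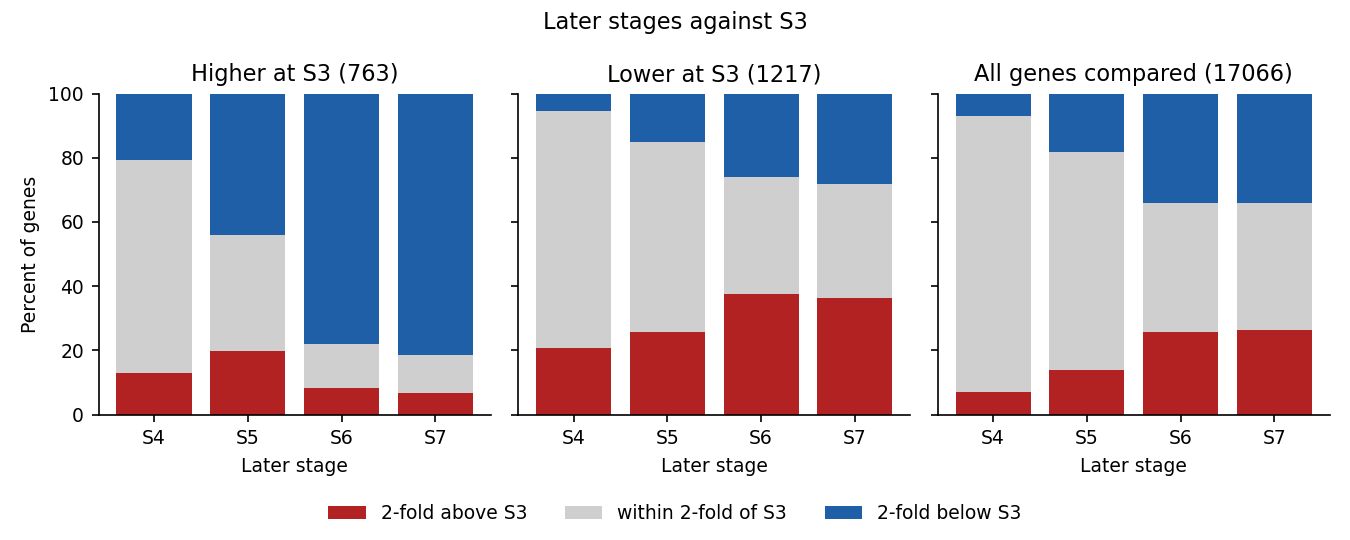
Bars give the percent of genes at least 2-fold above (red), within 2-fold of (grey) and at least 2-fold below (blue) their S3 level at S4, S5, S6 and S7, for 763 risers, 1217 fallers and all 17066 genes. With the columns as deposited, the blue share of the risers grows to 78.0% at S6, while the fallers have more red than blue at every stage.

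Single steps that leave out both S3 and S2 also showed the later loss of the risers. At S5 against S4, 129 risers (16.9%) were at least 2-fold higher and 242 (31.7%) at least 2-fold lower, against 6.63% and 10.3% of all genes. At S6 against S5, 51 (6.68%) were higher and 445 (58.3%) lower, against 23.1% and 27.7% of all genes. For the fallers the first of these steps had 155 (12.7%) higher and 196 (16.1%) lower, and the second had 384 (31.6%) higher and 282 (23.2%) lower.

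The 98 risers that rose further at S4 were chosen by their S2, S3 and S4 values, so the climb of their medians over these stages is no finding. Their median was 1.21 FPKM at S1, 1.57 at S2, 9.85 at S3, 41.7 at S4, 71.2 at S5, 2.95 at S6 and 1.93 at S7. Of these genes, 36 rose at least 2-fold once more at S5, where 6.63% of all genes did. At S6, 70 were at least 2-fold lower than at S5, where 27.7% of all genes were. Counted without the 2-fold limit at the other steps, 84 risers were higher at each stage than at the one before from S1 to S5, and 61 fallers were lower at each.

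Next to Ca_10366, the rises that continued most strongly reached very high levels at S5. Ca_07270 had 1.69, 1.69, 33.0, 248, 1597, 0 and 0 FPKM at S1 to S7. Ca_01090 had 4.91, 12.8, 138, 965, 2198, 36.6 and 15.3 FPKM at S1 to S7. Ca_16211, which had already risen from S1, had 0.257, 22.1, 110.2, 1279, 2606, 1.52 and 0.159 FPKM at S1 to S7. All of these, and Ca_20559 with 0.995, 1.23, 12.2, 73.5, 223, 0.0252 and 0.0177 FPKM at S1 to S7, were highest at S5. From S6 all but Ca_10366 had lost nearly all of their S5 level, with Ca_01090 still at 36.6 FPKM.

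The falls that continued most strongly led to near-absence by S5. Ca_24922 had 1143, 627, 80.1, 4.57, 0.122, 0.241 and 0.0634 FPKM at S1 to S7. Ca_00228 had 149, 41.6, 5.92, 0.206, 0.0112, 0.0720 and 0.0259 FPKM at S1 to S7. Ca_05711 had 99.2, 43.5, 8.63, 0.980, 0.0752, 0.169 and 0.181 FPKM at S1 to S7. These were highest at S1 and lower at each stage to S5. Ca_07114 had 40.5, 51.4, 3.73, 0.266, 0.360, 0.0224 and 0.0383 FPKM at S1 to S7, and Ca_07423, which had risen steeply into S2, had 7.20, 416, 62.1, 14.2, 6.4, 16.6 and 3.75 FPKM at S1 to S7 and did not reach such low levels.

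Where the rise reversed at S4, S3 stood alone among its neighbours. Ca_21854 had 0.0662, 3.14, 27.8, 0.720, 0, 0.665 and 0.462 FPKM at S1 to S7. Ca_05186 had 0.989, 2.93, 25.3, 3.84, 0.159, 0.0602 and 0.0410 FPKM at S1 to S7. Ca_25515 had 1.04, 1.06, 9.70, 0.229, 0, 0 and 0 FPKM at S1 to S7. None of these was above 1 FPKM from S5 on, so their rise at S3 was a single peak in seeds. Ca_08438 had 28.2, 1.5, 17.6, 1.72, 0.942, 1.15 and 1.62 FPKM at S1 to S7, with an earlier and higher value at S1, and Ca_25191 had 84.5, 35.1, 462, 89.8, 256, 274 and 101 FPKM at S1 to S7, high again at S5 and S6.

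Where the fall reversed at S4, the dip at S3 lay between higher values. Besides Ca_02363 and Ca_24862, Ca_21200 had 4.78, 50.1, 1.03, 21.6, 18.3, 9.80 and 3.58 FPKM at S1 to S7. Ca_16514 had 1.07, 31.4, 0.168, 8.85, 0, 0.0615 and 0.188 FPKM at S1 to S7. Ca_06747 had 330.1, 34.1, 2.61, 28.1, 5.07, 25.4 and 24.0 FPKM at S1 to S7, and differed from the others in being highest at S1.

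**Figure D4:**
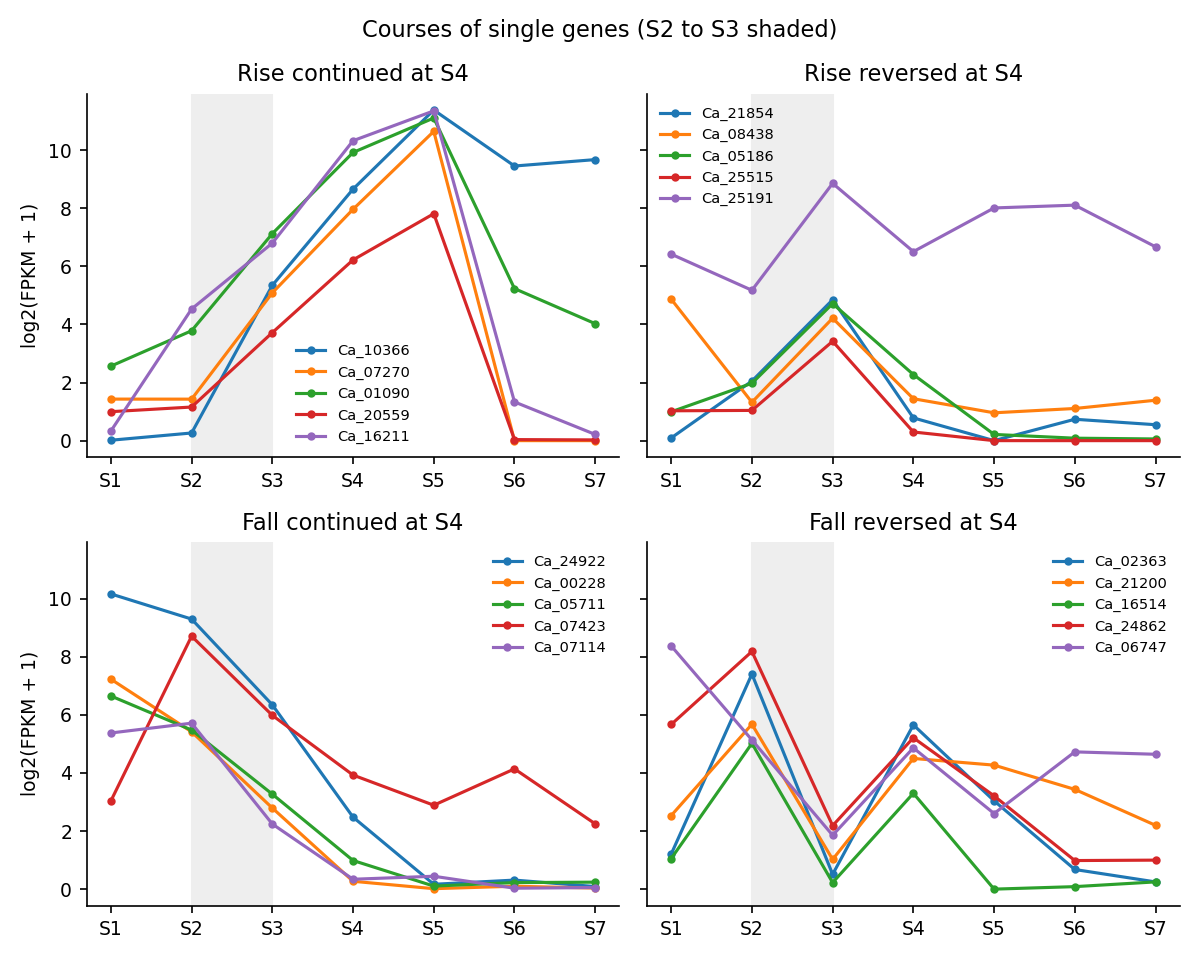
log2(FPKM + 1) at S1 to S7 for the 5 genes of each kind in which the smaller of the changes at S3 and at S4 was largest, with the step studied here shaded. The continued rises climb to S5, and the continued falls are near 0 by S5 except Ca_07423. The reversed courses turn at S3.

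Of the 159 risers that fell back at S4, 27 rose at least 2-fold again at S5, and 10 of these 27 were listed at exactly 0 at S4. The following were chosen after their values were seen. Ca_24988 had 262, 4517, 11139.6, 0, 28211, 15.7 and 6.11 FPKM at S1 to S7. Ca_19807 had 1167, 756, 5931, 0, 1190.0, 341 and 312 FPKM at S1 to S7. A 0 between values as high as these can stand for an estimate that failed, which was not tested. The other 17 had S4 values above 0, among them Ca_28211, Ca_24483, Ca_28034 and Ca_25191. In all, 34 risers and fallers were listed at 0 at S4, and the place of these genes at that step rests on a value of 0.

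A comparison of S4 with S1 leaves out both columns that chose the genes. Of the risers, 482 (63.2%) were at least 2-fold higher at S4 than at S1 and 31 (4.06%) lower, with a median difference of 1.43. Over all genes compared, 13.3% were higher and 12.3% lower, with a median of -0.016. Of the fallers, 191 (15.7%) were higher and 316 (26.0%) lower, with a median of -0.093. The difference between S3 and S2 was thus also found between S4 and S1 for most risers and for a smaller share of the fallers.

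**Figure D5:**
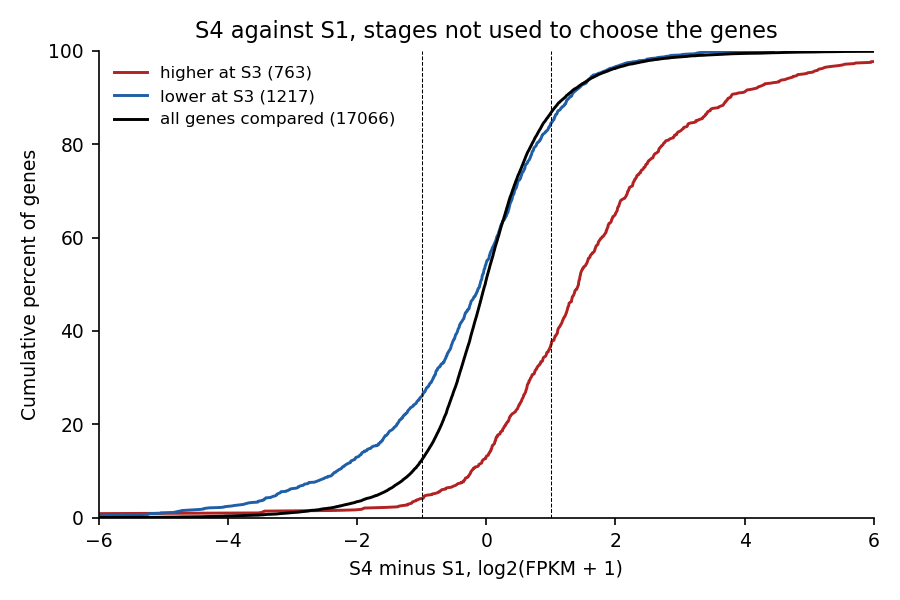
Cumulative percent of genes by the difference S4 minus S1 on the log2(FPKM + 1) scale, for 763 risers (red), 1217 fallers (blue) and all 17066 genes (black). Dashed lines mark the 2-fold limits, and the x axis ends at 6 in both directions. The curve of the risers lies to the right, with a median of 1.43, while that of the fallers runs near the curve of all genes in the middle, with a median of -0.093.

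The same was seen in the stage with the highest value when S3 and S2 were left aside. Among S1 and S4 to S7, S4 was highest in 51.2% of the risers and S5 in 29.6%, against 17.1% and 16.3% of all genes. Of the fallers, S1 was highest in 34.3%, against 27.5% of all genes, and no other of these stages was highest in more than 20.9%.

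About as many fallers had been at least 2-fold higher at S2 than at S1 as had not. At S2, 612 fallers (50.3%) had been at least 2-fold above S1 and 56 at least 2-fold below, against 8.50% and 5.02% of all genes. The S2 column enters both steps, so a high S2 value favours both. The medians of the 612 were 5.26, 25.7, 5.09 and 8.65 FPKM at S1 to S4. At S3, 509 of them (83.2%) were within 2-fold of S1, beside 84.5% of all genes. Another 47 were at least 2-fold higher and 56 lower at S3 than at S1. The other 605 fallers had 18.6, 19.4, 5.68 and 6.89 FPKM. Of these, 282 (46.6%) were at least 2-fold lower at S4 than at S1, against 12.3% of all genes. The split used S1 and places every one of them lower at S3 than at S1, so this share is not independent of the choice. Of the risers, 127 (16.6%) were at least 2-fold higher and 62 (8.13%) lower at S2 than at S1. Both shares were above those of all genes, while the share higher was below the 50.3% of the fallers.

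Against leaf, the risers and fallers stood apart at S4, whereas the risers were near all genes at S1. At least 1 FPKM in leaf was found for 58.5% of the risers and 81.7% of the fallers, against 86.0% of all genes compared. At S1 these shares were 65.4%, 87.3% and 92.7%, so the low share of the risers was not particular to leaf. At S4 against leaf, 453 risers (59.4%) were at least 2-fold higher and 125 (16.4%) lower, and 235 fallers (19.3%) were higher and 518 (42.6%) lower, where 27.4% and 22.3% of all genes were. At S1 against leaf, 224 risers (29.4%) were higher and 194 (25.4%) lower, beside 27.4% and 22.6% of all genes. For the fallers these numbers were 333 (27.4%) and 512 (42.1%). The 612 fallers that were at least 2-fold higher at S2 than at S1 had a median of 19.8 FPKM in leaf, beside their 25.7 FPKM at S2.

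Risers with consecutive identifiers were more frequent than their overall share, and fallers were close to theirs. Of tested neighbours of risers with a single identifier, 68 of 709 (9.59%) were risers too, against 4.47% of all such genes. Of neighbours of fallers, 96 of 1213 (7.91%) were fallers, against 7.23%. That identifiers follow position in the genome was not tested, and copies that share reads could count as such neighbours.

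Of 6 gene lists that the study used, the cell cycle list had the lowest share of genes at least 2-fold apart at this step. The lists hold identifiers grouped by process or by QTL for seed size and weight, here limited to genes that the study listed with a differentially methylated region (DMR) between seed stages or, for the cell growth and QTL lists, between cultivars. The tables of the study hold genes of these groups with a DMR, with differential expression or with both, and those listed for expression alone are left out by this limit. Of 133 tested cell cycle genes, 3 rose and 3 fell (4.51%), beside 11.6% of all genes compared, and their median difference was 0.0038. With the genes listed for expression alone included, 8 rose and 11 fell of 269 (7.06%), again the lowest share of the 6 lists. At the step before, 32 of the 133 had been at least 2-fold lower and 5 higher at S2 than at S1, where 5.02% of all genes were lower and 8.50% higher, so more of the list had changed at that earlier step than did here.

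The 6 members of that list that did change had differing courses. Ca_12649 had 75.5, 89.9, 193, 153, 135, 0.347 and 0.0105 FPKM at S1 to S7. Ca_03717, also in the cell growth list, had 1.5, 75.9, 2.48, 15.8, 7.06, 0.649 and 0.142 FPKM at S1 to S7, a difference of -4.47, with a peak at S2. Ca_23328 had 1.10 FPKM at S3 against 4.80 FPKM at S2, and Ca_09271 had 12.1 FPKM at S3 against 4.95 FPKM at S2. The other 2, Ca_02785 and Ca_01193, were at low levels in seeds, with 2.31 FPKM and 0 at S3 against 0.411 and 1.34 FPKM at S2. Scaled to the same sum, Ca_12649 and Ca_09271 were within the limit with differences of 0.85 and 0.96, and with a pseudocount of 5 FPKM, Ca_12649 and Ca_03717 alone of the 6 stayed past it.

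Of 123 cell growth genes, 6 rose and 5 fell (8.94%, beside 11.6% of all genes), with a median of 0.14. The largest rise was that of Ca_02806, which is in the differentiation list as well and had 29.2, 7.87, 93.0, 133, 17.4, 0.0401 and 0 FPKM at S1 to S7. Ca_06367, in both lists too, had 0.532, 0.313, 6.21, 8.80, 22.9, 0.0290 and 0.0353 FPKM at S1 to S7. Ca_21133 had 76.8, 76.8, 175, 188, 90.0, 21.4 and 25 FPKM at S1 to S7. Ca_02806, Ca_06367 and Ca_21133 had in common an S4 level within 2-fold of S3 and a far lower level at S6. Ca_10508, which also rose, shared this course and was listed at 0 at S6. Ca_06937, another riser of this list, went the other way after S4, with 3.27 FPKM at S3 against 47.7 FPKM at S6. Of the 6 genes that rose, 0 fell back at S4, against 20.8% of all risers, and 5 were at least 2-fold higher at S4 than at S1, against 63.2% of all risers. Scaled to the same sum, Ca_21133 was within the limit with a difference of 0.93.

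Of 305 differentiation genes, 17 rose and 15 fell (10.5%, close to the 11.6% of all genes), with a median of 0.14. Ca_04109 rose at this step and the next, with 4.40, 5.92, 48.2, 140.3, 174, 0.956 and 0.206 FPKM at S1 to S7. Ca_09689 went the other way, with 14.8, 11.7, 0.222, 0, 0, 0.0301 and 0 FPKM at S1 to S7. Ca_12416 had 16, 11.5, 1.80, 1.92, 1.70, 0.227 and 0.291 FPKM at S1 to S7 and 41.2 FPKM in leaf. Of the 17 that rose, 3 rose further and 3 fell back at S4, beside 12.8% and 20.8% of all risers. Of the 15 that fell, 0 fell further and 1 came back, beside 5.42% and 20.7% of all fallers. These counts are too small to set the list apart.

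Grain filling genes, those for deposition of reserves, were apart in 15.6%, beside 11.6% of all genes, with 3 higher and 7 lower of 64 and a median of 0.14. Ca_17365 had 0.685, 0.952, 18.9, 86.2, 124, 0.0242 and 0.0154 FPKM at S1 to S7, a course like that of Ca_20559 above. Ca_03834,Ca_03835, an entry that joins a pair of identifiers, had 70.1, 89.4, 228, 283, 3395, 624 and 999.6 FPKM at S1 to S7. Ca_15155 fell, with 29.8, 79.3, 28.1, 51.8, 67.2, 228 and 231 FPKM at S1 to S7, and was far higher at S6 and S7. Of the 3 genes that rose, 2 were highest at S5. Of the 7 that fell, 4 had been at least 2-fold higher at S2 than at S1, as 50.3% of all fallers had.

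Desiccation genes, those for tolerance of drying, had the highest share apart of the 6 lists, mainly lower. Of 65 tested, 4 rose and 13 fell (26.2%, beside 11.6% of all genes), with a median of -0.11, and of all 131 tested genes of the list, with or without a DMR, 9 rose and 30 fell (29.8%), a count that includes genes listed for their expression at this step. Of the 13 that fell, 9 had been at least 2-fold higher at S2 than at S1, where 50.3% of all fallers had. Ca_04027 had 2.57, 20.5, 2.21, 7.29, 15.3, 1.21 and 1.17 FPKM at S1 to S7, with 225 FPKM in leaf. Ca_01237,Ca_01238 had 14.0, 77.5, 13.9, 14.0, 11.3, 61.5 and 58.6 FPKM at S1 to S7. Ca_12785 had 61.3, 48.5, 10.9, 10.4, 7.06, 71.5 and 101 FPKM at S1 to S7. The first was highest in leaf, and the other entries were higher again at S6 and S7.

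The desiccation genes that rose included Ca_00791, with 2.00, 1.92, 5.30, 9.97, 56.8, 160.0 and 219 FPKM at S1 to S7, higher at each stage from S3 to S7. The entry Ca_15691,Ca_15692,Ca_15693 had 0.0106, 0.0203, 29.2, 2683, 0, 11 and 5.79 FPKM at S1 to S7, a difference of 4.89. It joins 3 identifiers and is listed at 0 at S5 after its highest value at S4, so its course is uncertain.

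Of 712 genes in the QTL list, 18 rose and 44 fell (8.71%, beside 11.6% of all genes), with a median of -0.0073. Ca_00331 had 41.2, 71.4, 514, 563, 69.6, 0.130 and 0.0360 FPKM at S1 to S7. Ca_12814 had 97.7, 94.1, 322, 273, 246, 132 and 90.8 FPKM at S1 to S7. Ca_18651 had 72.3, 52.7, 8.34, 1.99, 2.16, 64.4 and 24.8 FPKM at S1 to S7, and Ca_04534 had 3.80, 17.5, 0.393, 5.28, 4.18, 0.380 and 0.133 FPKM at S1 to S7 with 409 FPKM in leaf. Ca_00331 was far higher at S3 and S4 than at the other seed stages, as Ca_15856 of the same list was, whereas Ca_12814 stayed above 90 FPKM at every seed stage.

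None of the 12 DNA methyltransferase and demethylase genes that the study names passed the 2-fold limit at this step, beside 11.6% of all genes compared. With so few genes, this count does not set them apart from that share. CaMET1, which maintains methylation at CG sites, had 6.01 FPKM at S3 against 5.98 FPKM at S2. The chromomethylase genes CaCMT2 and CaCMT3, which act at non-CG sites, had 7.32 and 13.5 FPKM at S3 against 8.56 and 13.9 FPKM at S2. CaCMT2 and CaCMT3 were lower at S2 than at S1, which had 23.4 and 41.6 FPKM, and lower again at S4, with 2.26 and 6.33 FPKM, so the step studied here was the level part of a falling course. CaCMT1 had the largest difference of the 12, 0.37, with 19.5 FPKM at S3 against 14.8 FPKM at S2. CaDRM1 and CaDRM2, which add methylation without a methylated template, had 11.7 and 20.0 FPKM at S3 against 11.4 and 22.7 FPKM at S2. The 6 demethylase genes had differences between -0.050 and 0.36. Of these, Ca_17326, Ca_17329 and Ca_07031 had 0.334, 0.330 and 0.311 FPKM at S3 against 0.382, 0.250 and 0.199 FPKM at S2. Being under 1 FPKM at both stages, they were not among the genes compared and could not pass the limit on this scale.

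The study names 13 genes in its text from a larger set of candidates for seed size and weight. Of these 13, 2 passed the limit, which is near the share of 11.6% of all genes compared. Both were of the GH3 family, whose members conjugate auxin and other hormones to amino acids. Ca_06937 rose, with 0.00942, 0.618, 3.27, 3.6, 24.2, 47.7 and 49.3 FPKM at S1 to S7, a difference of 1.4. Ca_23631 fell, with 30.1, 69.9, 33.5, 9.82, 1.86, 1.29 and 1.86 FPKM at S1 to S7, a difference of -1.04. The first was higher at each stage up to S7 and the second fell at least 2-fold further at S4. Both calls were lost with a pseudocount of 5 FPKM, with differences of 0.56 and -0.96, and that of Ca_23631 also when scaled to the same upper quartile, with -0.97.

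Genes of DNA replication among the candidates were level. CDC6, which loads the replicative helicase, had 9.54, 3.67, 3.52, 2.21, 1.72, 0.0397 and 0.0834 FPKM at S1 to S7. The minichromosome maintenance genes, which encode subunits of that helicase, included Ca_09549 with 63.9, 24.7, 25.5, 9.85, 6.13, 3.77 and 3.07 FPKM at S1 to S7 and Ca_15408 with 45.4, 18.2, 18.4, 8.50, 4.52, 0.781 and 0.549 FPKM at S1 to S7. These 3 genes were more than 2-fold lower at S2 than at S1, nearly equal at S3 and S2, and lower again at S4, by at least 2-fold in Ca_09549 and Ca_15408. The third minichromosome maintenance gene, Ca_12014, had 3.90, 2.27, 2.70, 3.03, 4.74, 0.513 and 0.896 FPKM at S1 to S7, so it was under 2-fold lower at S2 than at S1 and was highest at S5. The F-box gene Ca_01760 had 39.5, 62.4, 81.6, 21.6, 10.7, 54.7 and 52.1 FPKM at S1 to S7, so it was highest at S3 among the seed stages while its difference of 0.38 stayed within the limit.

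A value listed at 0 at S3 or S2 entered 31 of the 1980 calls, 13 among the risers and 18 among the fallers, and no fold change is given for these. The largest were Ca_26343, with 434, 0, 1395, 0, 3744, 1004 and 0 FPKM at S1 to S7, and Ca_25380, with 295, 119, 0, 0, 0, 0 and 802 FPKM at S1 to S7. The first alternated between 0 and high values up to S5, and the second was listed at 0 from S3 to S6. Ca_00181 was listed at 0 at S3 against 17.3 FPKM at S2, and Ca_17690 at 0 at S3 against 15.2 FPKM at S2. The identifier Ca_00181 also occurs on the joined entry Ca_00161,Ca_00181, which had 42.3 FPKM at S3 against 142 FPKM at S2. Ca_17690 had 216 FPKM at S4. Ca_19850 had 0, 0, 7.68, 13.7, 32.4, 0.972 and 0 FPKM at S1 to S7, a course that rose to S5 like that of the genes whose rise continued. Ca_24820 had 3.01 FPKM at S3 against 0 at S2. In addition, 285 risers and fallers had an identifier that occurs on several entries and 137 joined several identifiers, so reads could have been divided among entries there.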

How the data were processed

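The data are RNA-seq of whole seeds at 7 stages and of leaf, with 3 samples in each group named by its sample title. Per the labels and methods of the study, the authors cleaned the reads (NGS QC Toolkit), aligned them to the annotated chickpea genome (TopHat) and estimated FPKM (Cufflinks), of which they deposited 1 pooled FPKM column for each group. How the samples were pooled, strand use and versions are not given in the sources used here.

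Of 35234 entries, 27966 had a gene identifier and 7268 with only a locus label were left out. Entries with at least 1 FPKM at S3 or S2 were compared on log2(FPKM + 1), a pseudocount of 1, with a 2-fold limit (Python 3.11.15, numpy 2.4.6, pandas 2.3.3, matplotlib 3.10.9). With 1 column per group no test was possible, and Cuffdiff was not rerun. Depth is unknown, since low values did not fall on common steps. None of the 28269 identifiers matched the RefSeq gene table (0 matches), so no sequences are printed. For listed genes on several entries, the entry with the highest mean was used. The calculation was tested on simulated data.

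Named genes, among single, non-repeated identifiers above 0 at S1 to S4, were the 8 largest rises and falls, the 5 largest in FPKM, the 5 strongest continued and reversed changes in each direction, the 5 largest of each list in each direction, the 13 candidates and 12 methylation genes named in the text of the study, and separately the 3 largest in each direction listed at 0. List genes were taken whatever their entry, so joined entries occur there. The members, lists and rules were chosen with earlier results of these data known. Alternatives were other pseudocounts, minimums, limits, scalings and memberships.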

Additional observations from a re-analysis of the deposited data

How the results depend on the processing

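Counts were taken as unchanged within 1.5 times, the percent of risers within its 95% interval over genes, and list medians within 0.1. That interval treats genes as independent, which they are not, so it served as a limit only and measures no spread between samples. Of 170 values of counts and lists under other settings, 130 were within these limits and 40 were not. The 763 risers became 352 with a pseudocount of 5 FPKM and 160 with a 4-fold limit, and the 1217 fallers became 684, 307 and, scaled to the same sum, 1852. Risers made up 42.1% of the genes apart with a pseudocount of 0.1 FPKM, 34.0% with 5 FPKM, 34.3% with the 4-fold limit, 24.9% scaled to the same sum and 44.8% to the same upper quartile.

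With pseudocounts of 0.1 and 5 FPKM and the 4-fold limit, in this order, risers further up at S4 numbered 173, 43 and 15, risers back 258, 81 and 25, fallers further down 160, 26 and 5, and fallers back 416, 122 and 25. At S4 against S1, risers lower numbered 66, 16 and 3, fallers higher 314, 79 and 10, and fallers lower 494, 159 and 64. With 5 FPKM and the 4-fold limit, risers higher at S4 than S1 numbered 214 and 100, and fallers higher at S2 than S1 numbered 354 and 137. Scaled to the same sum, 131 fallers fell further at S4, 493 were lower at S4 than S1 and 979 were higher at S2 than S1. The changes with a stricter limit or a larger pseudocount follow from fewer genes passing. The share of risers higher at S4 than at S1 stayed between 60.8% and 68.2% over the 11 settings.

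Limited to genes with a DMR in S2/S3, the median of the cell cycle list was -0.10 and that of the grain filling list 0.29. Of 590 values of named genes under other pseudocounts and scalings, 567 stayed on their side of the limit and 23 crossed it. The sign changed in 0 values of genes past the limit as deposited and in 11 values of genes within it. No paired analysis was possible because each group is 1 pooled column without replicate numbers, and for the same reason no replicate could be left out. Depth limits low genes most, and by how much is unknown.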
